A study of Bos taurus with 10 samples.

Results

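Lactating mammary gland was compared with subcutaneous adipose tissue on 4 of the 10 two-channel cDNA microarrays of this bovine series, with the tissue of each array taken from its title. The RNA came from cattle at peak lactation, without further treatment, and the labels give no breed, age or number of animals. The series also holds liver and 2 visceral fat depots, mesenteric and omental. Each tissue had 1 RNA sample, labelled with Cy3 for the first array and with Cy5 for the second, and both arrays were read against a common RNA pool of several tissues. Both arrays of a tissue thus hold 1 sample, so there is no spread between animals and no p-value. The error given after ± is the distance of either orientation (tissues in Cy3, tissues in Cy5) from their mean.

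At peak lactation the secretory epithelium of the mammary gland takes up glucose, amino acids and lipid from blood and secretes milk protein, lactose and fat. Milk fat leaves the cell as droplets wrapped in apical membrane, the milk fat globules. Subcutaneous adipose tissue stores triglyceride in adipocytes and releases fatty acids when feed does not cover the energy secreted in milk, and it also holds fibroblasts, vessels and macrophages. Some macrophages of adipose tissue take up lipid and digest it in lysosomes, and these are known as lipid-associated macrophages.

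A value is the log2 ratio of tissue over reference, centred on the median of its array, and a difference is mammary gland minus subcutaneous adipose tissue within the same dye, averaged over both dyes. The direction of the deposited ratios is likely rather than stated, and with the opposite direction every sign below turns. Between 15970 and 16245 spots of an array had a value, duplicate spots on an array correlated at 0.84 to 0.88, and the opposite-dye arrays of a tissue at -0.67 for mammary gland and -0.74 for subcutaneous adipose tissue before signs were turned. Gene names rest on a print layout rebuilt from the data. Of 4366 named genes, 4331 had a value in both orientations. Values of different genes are ratios to the reference and cannot be ranked as amounts of RNA.

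The mammary gland sample was higher for genes of milk secretion and of luminal epithelium, and the subcutaneous sample for genes of macrophages, lysosomes and interstitial matrix. By the size rule (at least 2-fold, with the same sign in both orientations) 154 genes were higher in mammary gland, 3.56% of the 4331, and 451 genes were higher in subcutaneous adipose tissue, 10.4%. The list counts below are to be read beside these shares of all genes. The same rule applied to that error, which holds dye and array effects and noise, picked 38 genes (0.877%). The median difference over all genes was -0.044 and the quartiles were -0.47 and 0.275. Without centring of the arrays the counts were 76 and 949, the median of all genes was -0.50, and mammary gland held 7.4% of the genes past the rule. Quantile normalisation gave 197 and 369 genes, of which 34.8% were higher in mammary gland.

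The differences reached further than the dye error. Their SD across genes was 0.83 log2 units, against 0.27 for the dye error, whose median size was 0.12. Past 4-fold lay 41 genes on the mammary side and 124 on the subcutaneous side, and past 8-fold 11 and 39. The 2 mammary arrays and the 2 subcutaneous arrays did not overlap for 142 of the 154 genes and for 435 of the 451, which the rule nearly fixes, and for 2556 (59%) of all 4331 genes. The nearest genes to the threshold on the mammary side were RNF130 at 1.001, inside it, and MPC2 at 0.996, outside it. Of 127 genes past the rule with several array elements, the elements of 122 lay on 1 side of 0, and those of 79 all passed 2-fold. Such agreement is favoured in advance, since the layout was chosen for alike clones of a gene on these same arrays. The rule, applied to the mean of the elements, favours it too. The share over all genes with several elements was not counted. The tally for elements that carry no name was 142 higher in mammary gland and 210 higher in subcutaneous adipose tissue, of 2625 compared.

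**Figure D1:**
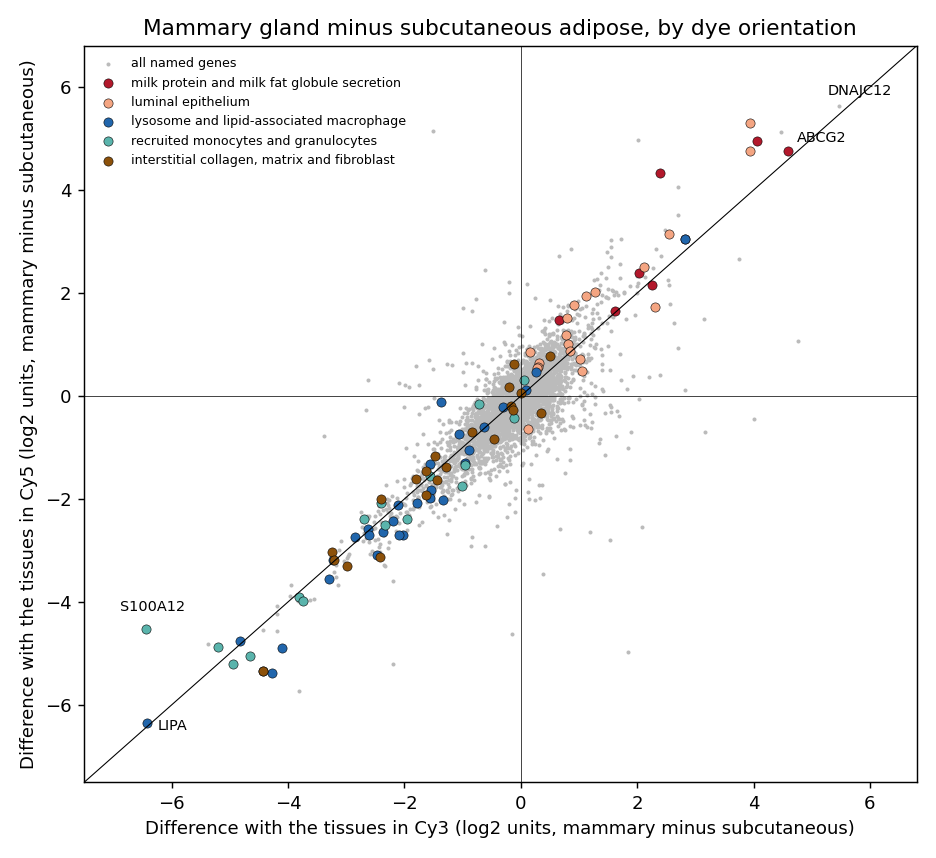
Each point is a named gene, with its difference (mammary gland minus subcutaneous adipose tissue, log2 units) when the tissues were in Cy3 on the x axis and when they were in Cy5 on the y axis, and the diagonal marks equal differences. Members of 5 gene lists are coloured, LIPA lies lowest along the diagonal at a mean of -6.39 and DNAJC12 highest at 5.55.

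The genes with the largest differences on the mammary side were of several kinds. DNAJC12, a co-chaperone of the Hsp70 system, stood at 4.14 (Cy3) and 4.35 (Cy5) in mammary gland and at -1.32 and -1.29 in subcutaneous adipose tissue, a difference of 5.55 ± 0.09 (46.9-fold). RETREG1, a receptor that hands endoplasmic reticulum to autophagy, stood at 2.72 and 2.89 against -1.76 and -2.24, a difference of 4.80 ± 0.33 (27.9-fold). TFAP2A, a transcription factor of epithelia, stood at 1.94 and 2.69 against -0.54 and -0.55, a difference of 2.86 ± 0.38. In each of these genes both mammary arrays lay above 0 and both subcutaneous arrays below it. The visceral depots were also below 0, at -1.09 and -0.79 for DNAJC12 in mesenteric and omental adipose tissue.

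Other genes among the first 20 on the mammary side rested on less even values. GRK4, a G protein-coupled receptor kinase, differed by 3.49 ± 1.48 because its mammary arrays read 0.44 and 4.79. MCAT, a mitochondrial enzyme of fatty acid synthesis, read 4.03 and 0.12 in mammary gland and -0.73 and -0.96 in subcutaneous adipose tissue, a difference of 2.92 ± 1.84. Neither gene had a value once elements with discordant duplicate spots were left out. SDC2, a cell surface proteoglycan, read 0.33 and 2.58 against -1.99 and -0.28, so its mammary and subcutaneous arrays did not overlap although each pair spread by over 1 log2 unit. ASB11 had 3 elements, with differences from 1.21 to 4.35. GIPC2 (3.38), RAMP1 (3.21, with no value on the second spots), RHPN2 (2.56), ATP2C2 (2.39), COBLL1 (2.39) and FAM107A (2.38) made up the rest together with genes of the lists below.

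**Figure D2:**
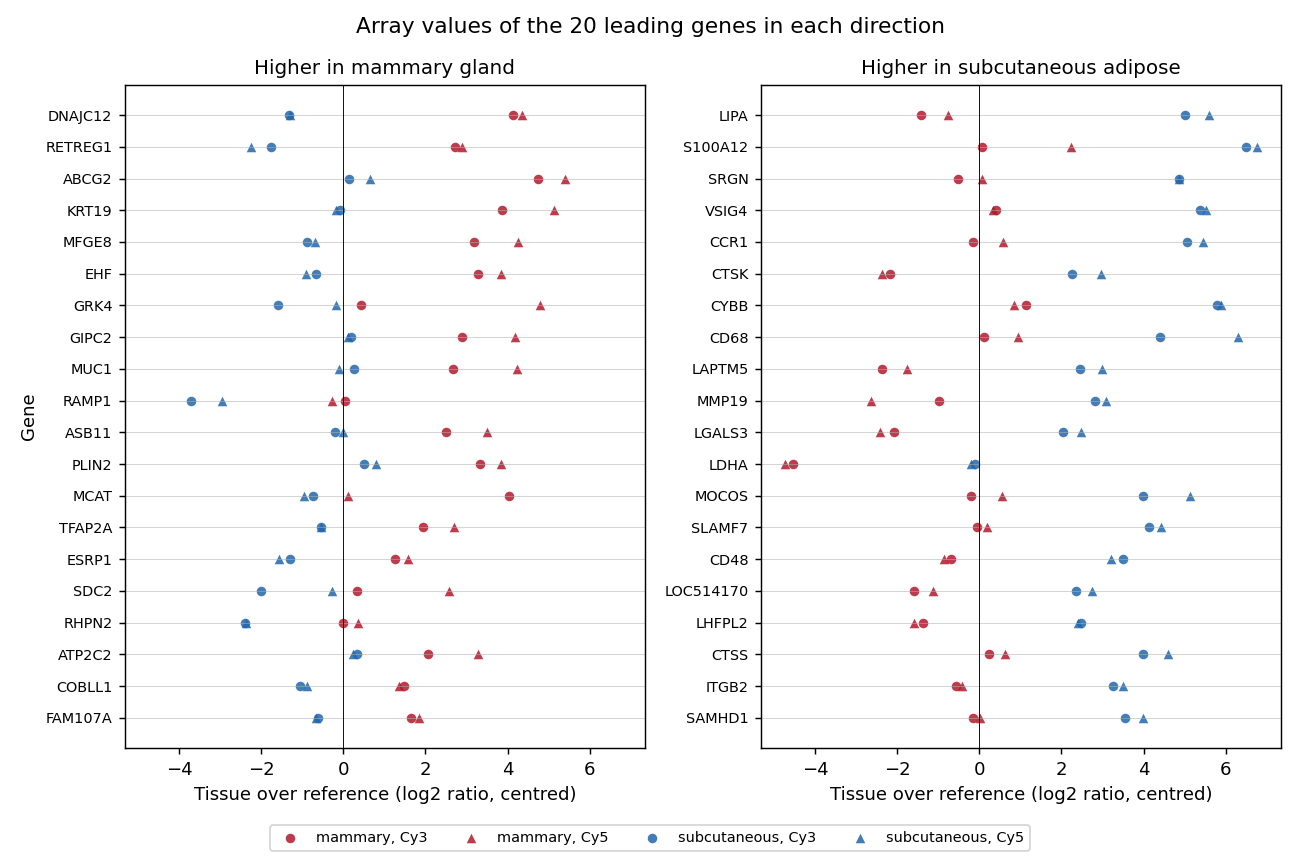
The x axis gives the centred log2 ratio of tissue over reference on each of the 4 arrays for the 20 genes with the largest difference in each direction (y axis), with mammary gland in red, subcutaneous adipose tissue in blue, circles for the tissue in Cy3 and triangles for Cy5. The colours separate in every gene shown, and the mammary values of GRK4 (0.44 and 4.79) and MCAT (4.03 and 0.12) lie far apart.

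Genes of milk secretion were higher in mammary gland. Of 8 measured genes for milk proteins and milk fat globules, 8 were past the rule on the mammary side (median difference 2.57), and 7 without centring or in the Cy3 orientation alone. On average they stood at 3.22 and 4.03 on the mammary arrays and at 0.67 and 0.93 on the subcutaneous arrays. The position of milk genes was 1 of the grounds for the direction of the ratios, so this count is not independent evidence of it. The caseins, alpha-lactalbumin and the other defining milk proteins were not analysed here. SPP1, osteopontin, also a milk protein, was placed in the macrophage list and did not pass (0.37). The count of 8 depends on that placement, in lists written with earlier results of these data known.

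Within the list the proteins of the globule membrane had large differences. MFGE8, the glycoprotein lactadherin of that membrane, stood at 3.17 and 4.25 in mammary gland and at -0.88 and -0.69 in subcutaneous adipose tissue, a difference of 4.50 ± 0.45 (22.6-fold). MUC1, an apical mucin, stood at 2.66 and 4.23 against 0.26 and -0.10, a difference of 3.37 ± 0.97. XDH, xanthine dehydrogenase, which binds the inner face of the globule membrane, stood at 4.41 and 5.33 against 2.16 and 3.18, a difference of 2.20 ± 0.05. The arrays of the 2 tissues did not overlap for any of these, which the size rule nearly fixes. XDH lay above 0 in both tissues, MFGE8 in mammary gland but not in subcutaneous adipose tissue.

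Droplet proteins and the galactosyltransferase B4GALT1 were also higher in mammary gland. PLIN2, the coat protein of cytoplasmic lipid droplets in milk-secreting cells and in foam cells, stood at 3.33 and 3.84 against 0.51 and 0.79, a difference of 2.93 ± 0.12 (7.64-fold). CIDEA, a droplet protein that binds XDH in mammary cells and is also found in adipocytes, stood at 1.72 and 1.95 against 1.06 and 0.47, a difference of 1.07 ± 0.41 that was 0.61 without centring and 0.66 in the Cy3 orientation alone. B4GALT1, the galactosyltransferase that with alpha-lactalbumin forms lactose synthase, stood at 2.61 and 3.49 against 0.58 and 1.09, a difference of 2.21 ± 0.18 over 3 elements that ran from 1.15 to 2.76. FOLR1, the gene of a folate receptor, differed by 1.64 ± 0.01, and had no value with discordant duplicate spots left out. In lactose and UDP-galactose supply B4GALT1 was the 1 gene of 6 past the rule. The glucose transporter gene SLC2A1, at 0.33 and 0.33 against -0.60 and -0.68, had a difference of 0.96 ± 0.04 and missed it, and the list median was -0.055.

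Transporters of mammary epithelium had 5 of 8 measured genes higher in mammary gland and none higher in subcutaneous adipose tissue (median 1.52). ABCG2, an exporter that carries riboflavin and many drugs into milk, stood at 4.73 and 5.41 in mammary gland and at 0.14 and 0.64 in subcutaneous adipose tissue, a difference of 4.68 ± 0.09 (25.6-fold). SLC30A4, a zinc exporter, stood at 2.76 and 3.84 against 0.99 and 1.82, a difference of 1.89 ± 0.13. SLC29A1, a nucleoside transporter, differed by 1.76 ± 0.40 and AQP3, a water and glycerol channel, by 1.27 ± 0.47 (0.81 without centring and in the Cy3 orientation alone). Both ABCG2 and SLC30A4 stood above the reference in either tissue, with the mammary arrays higher. SLC39A8, a metal ion importer, differed by 2.07 ± 0.07 as the mean of 2 elements that disagreed, at -0.42 and 4.55. SLC3A2, the shared chain of several amino acid exchangers, differed by 0.01 ± 0.05.

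Luminal epithelial markers were higher in the sample labelled mammary gland, though not all of them. Of 19 measured genes 9 were higher in mammary gland and none in subcutaneous adipose tissue (median 0.98), and 18 of the 19 differences lay above 0. KRT19, a keratin of simple epithelium, stood at 3.86 and 5.14 in mammary gland and at -0.08 and -0.17 in subcutaneous adipose tissue, a difference of 4.63 ± 0.68 (24.7-fold). EHF, an epithelial transcription factor of the ETS family, stood at 3.28 and 3.84 against -0.66 and -0.91, a difference of 4.34 ± 0.41. ESRP1, a splicing factor restricted to epithelia, stood at 1.26 and 1.57 against -1.29 and -1.58, a difference of 2.85 ± 0.30. No subcutaneous array reached the mammary values of these 3 genes, which the size rule nearly fixes.

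Other junction and keratin genes had smaller differences than KRT19. OCLN, occludin of the tight junction, differed by 2.31 ± 0.20, and KRT8, the keratin partner of KRT18, by 2.02 ± 0.29. KRT18 itself stood at -2.10 and -2.22 against -2.95 and -3.09, a difference of 0.86 ± 0.01 over 3 elements, and did not pass. EPCAM, an adhesion protein of epithelial cells, stood at 0.28 and 0.59 against 0.00 and 0.055, and its difference of 0.41 ± 0.13 did not pass either. The arrays of the tissues did not overlap for KRT18 or EPCAM, which held for 59% of all genes, and the distance was under 2-fold. SPINT2, a protease inhibitor, passed at 1.54 ± 0.42 with elements at -0.79 and 3.86. CDH1, the epithelial cadherin, stood at 2.28 and 3.29 against 2.12 and 2.43, so the tissues overlapped (0.51 ± 0.35). SPINT1 was the 1 member of the list below 0 (-0.26 ± 0.38).

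Basal and myoepithelial cells contract around the alveoli and share genes with smooth muscle. Of 4 measured basal genes KRT15 was higher in mammary gland (1.54 ± 0.24) and ACTG2, a smooth muscle actin, higher in subcutaneous adipose tissue (-1.44 ± 0.11). Smooth muscle and pericyte genes, which include ACTG2, had 3 of 10 higher in mammary gland and 1 lower (median -0.19). TPM1, a tropomyosin, stood at -0.80 and -1.14 against -2.37 and -2.70, a difference of 1.57 ± 0.01. TAGLN, transgelin, differed by 1.15 ± 0.06, and by 0.69 without centring. TPM2 differed by 1.29 ± 0.92 over elements at 0.19 and 2.40, and by 0.38 in the Cy5 orientation alone.

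The secretory machinery shared by all cells differed little. Of 42 genes for translocation, folding and export in the endoplasmic reticulum, 2 were higher in mammary gland and none in subcutaneous adipose tissue, and 32 lay above 0 (median 0.19, turning to -0.27 without centring). RETREG1, whose part is in autophagy of the endoplasmic reticulum, was 1 of these. The other was SEC11C, a catalytic subunit of signal peptidase, at 0.67 and 1.36 against -0.27 and 0.24 (1.027 ± 0.09). SEC11C was past the rule by little and fell short without centring (0.57), on the second spots (0.99) and in the Cy3 orientation alone (0.94). Unfolded protein and amino acid response genes had 2 of 10 higher in mammary gland, DNAJC12 and SYVN1, a ubiquitin ligase of the endoplasmic reticulum, at 1.15 ± 0.15 and at 0.69 without centring (median -0.019). Aminoacyl-tRNA synthetases had 1 of 7 higher in subcutaneous adipose tissue, SARS1 at -1.06 ± 0.08, and at -0.91 after quantile normalisation (median -0.005). In prolactin and growth signalling none of 5 measured genes passed, with IGFBP3 at 0.52 ± 0.06 and AKT1 at 0.48 ± 0.19.

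Lipid synthesis did not separate the tissues as a group. The fatty acid synthesis list held 4 measured genes, of which ACSS1, an acetate-activating enzyme of mitochondria, was higher in mammary gland (1.20 ± 0.55) and was at 0.65 in the Cy3 orientation alone. ACLY, the source of acetyl-CoA in the cytosol, read -0.34 and -0.82 against -0.23 and -0.49, and both tissues lay below the visceral depots, at 1.24 and 2.30. SREBF1, a regulator of lipogenic genes, had opposite signs in the orientations (-1.56 ± 3.41) and gives no usable difference. FASN and SCD were not analysed here.

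Triglyceride and phospholipid synthesis had 1 of 13 genes higher in mammary gland and 3 higher in subcutaneous adipose tissue (median -0.19). PTDSS1, a phosphatidylserine synthase, stood at -1.19 and -0.55 in mammary gland and at 1.55 and 1.70 in subcutaneous adipose tissue, a difference of -2.49 ± 0.25. ACSL5, which activates fatty acids, differed by -1.41 ± 0.05 and AGPAT5, an acyltransferase, by -1.15 ± 0.11. ACSL5 had no value with discordant duplicate spots left out, and AGPAT5 was at -0.94 on the second spots. AGPAT1, of the same family, went the other way at 1.23 ± 0.43, and was at 0.77 without centring. Cholesterol synthesis had MSMO1, a sterol demethylating oxidase, at 1.82 ± 0.24 and ACAT2, a thiolase, at -1.15 ± 0.32 among 6 genes, the latter at -0.58 after quantile normalisation and -0.83 in the Cy3 orientation alone. Mitochondrial fatty acid oxidation had 1 of 11 past the rule, near the 10.4% of all genes on the subcutaneous side. It was HADH at -1.08 ± 0.16, which was -0.92 in the Cy5 orientation alone.

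Adipocyte genes gave weak separation between mammary gland and the sample labelled subcutaneous adipose tissue. Of 10 measured genes 2 were higher in subcutaneous adipose tissue and none in mammary gland (median -0.003). ADIPOQ, PLIN1, FABP4, LEP, LPL, CD36 and PPARG were not analysed here, so the label could be checked on the remaining genes only. LIPE, hormone-sensitive lipase, stood at 0.29 and 0.33 in mammary gland, at 0.43 and 0.19 in subcutaneous adipose tissue, and at 2.26 and 2.18 in mesenteric and omental adipose tissue. CAV1, the main protein of caveolae, stood at -0.55 and -0.20 in mammary gland and at -0.58 and -0.53 in subcutaneous adipose tissue, against 1.63 and 1.52 in the visceral depots. For LIPE and CAV1 the mammary and subcutaneous arrays overlapped, and both tissues lay below the visceral depots.

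The other adipocyte genes varied. CAVIN1, a coat protein of caveolae, stood at 0.16 and -0.004 in mammary gland and -0.23 and -0.15 in subcutaneous adipose tissue, with 1.60 and 1.65 in the visceral depots. PNPLA2, adipose triglyceride lipase, differed by 0.44 ± 0.19 and MGLL, monoglyceride lipase, by -0.005 ± 0.001. RBP4, the carrier of retinol, passed the rule at -1.49 ± 0.33, although its arrays read -4.70 and -1.49 in mammary gland and -3.54 and 0.33 in subcutaneous adipose tissue, so that the tissues overlapped. CEBPA, a transcription factor of adipocytes and of myeloid cells, passed at -1.30 ± 0.34 with elements at -2.35 and -0.26, and was at -0.96 in the Cy3 orientation alone. CFD, adipsin, stood at -0.75 and -0.85 against -0.12 and -0.12 and missed the rule (-0.68 ± 0.05). Against the mean of the visceral depots the list median was -1.31 for mammary gland and -0.89 for subcutaneous adipose tissue, comparisons that share the visceral arrays. Beside these values the monocyte and granulocyte list averaged 2.83 and 3.14 on the subcutaneous arrays and 0.47 to 1.01 on the visceral ones. The part of that list in the adipocyte values was not tested. In tissue RNA fewer cells of a type and less RNA per cell cannot be told apart.

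**Figure D3:**
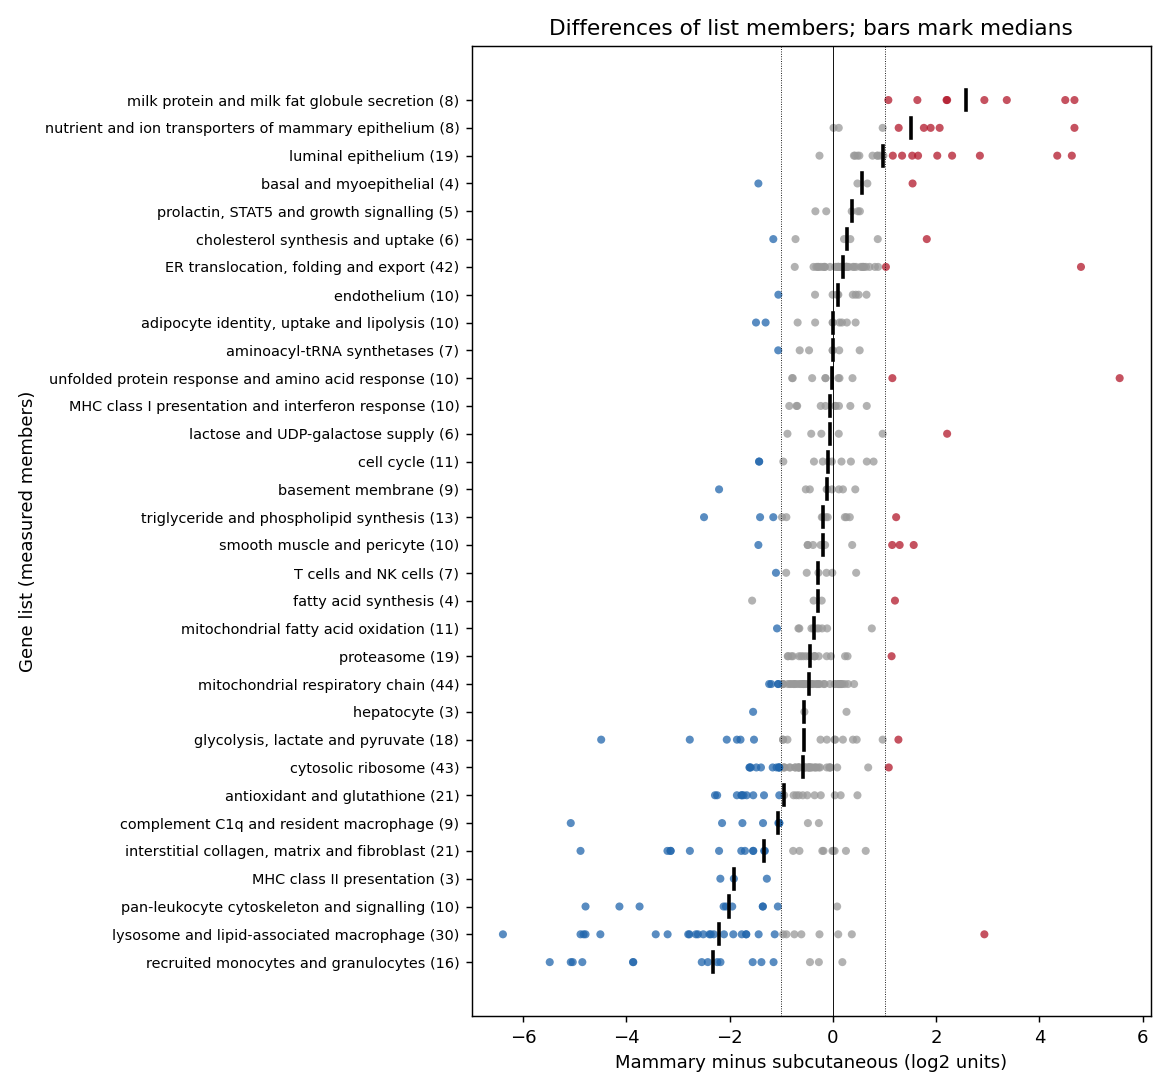
Each row is a gene list with its number of measured members, each point a member's difference on the x axis (mammary gland minus subcutaneous adipose tissue, log2 units), red where past the size rule on the mammary side, blue on the subcutaneous side and grey where neither. Black bars mark the medians, which run from -2.33 for recruited monocytes and granulocytes to 2.57 for milk secretion, and dotted lines mark 2-fold.

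The list named recruited monocytes and granulocytes had the lowest median of the lists drawn. It also holds genes of resident macrophages, such as VSIG4, and its values do not show recruitment. Of 16 measured genes 13 were higher in subcutaneous adipose tissue and none in mammary gland (median -2.33, against -0.044 for all genes). S100A12, a calcium-binding alarm protein of granulocytes and monocytes, stood at 6.50 and 6.76 in subcutaneous adipose tissue and at 0.059 and 2.24 in mammary gland, a difference of -5.48 ± 0.96 (44.7-fold higher in subcutaneous adipose tissue), and had no value with discordant duplicate spots left out. CCR1, a chemokine receptor of monocytes and neutrophils, stood at 5.05 and 5.46 against -0.15 and 0.58, a difference of -5.04 ± 0.16. CYBB, the catalytic chain of the phagocyte oxidase, stood at 5.80 and 5.89 against 1.14 and 0.85, a difference of -4.85 ± 0.19. Every subcutaneous array lay at least 4 log2 units above the mammary arrays in these genes.

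The subcutaneous sample also stood above the visceral depots in this list. CCR1 was at 1.25 and 1.58 in mesenteric and omental adipose tissue, CYBB at 1.31 and 1.73, and S100A12 at 1.23 and 1.37. For the whole list, the median against the visceral depots was 1.99 for subcutaneous adipose tissue and -0.37 for mammary gland, with the visceral arrays shared. ITGB2, the beta chain of leukocyte integrins, differed by -3.86 ± 0.05 and AIF1, an actin-binding protein of macrophages, by -2.54 ± 0.15. The chemokine genes CCL2 (-2.42 ± 0.09) and CXCL8 (-1.55 ± 0.01), which draw monocytes and neutrophils, were past the rule. CD14, a co-receptor for endotoxin, was not, at 1.36 and 2.96 in mammary gland and 2.09 and 3.13 in subcutaneous adipose tissue (-0.44 ± 0.28). PTPRC, ITGAM and CSF1R were not analysed here.

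Lysosomal genes and genes of lipid-associated macrophages were higher in subcutaneous adipose tissue in 22 of 30 cases, with 1 higher in mammary gland (median -2.21). LIPA, the acid lipase that frees cholesterol and fatty acids from engulfed lipid, stood at 4.999 and 5.58 in subcutaneous adipose tissue and at -1.43 and -0.77 in mammary gland. Its difference of -6.39 ± 0.04 (83.7-fold) was the largest among all named genes. CD68, a lysosomal glycoprotein of macrophages, stood at 4.40 and 6.31 against 0.12 and 0.94, a difference of -4.83 ± 0.55. LGALS3, galectin 3, stood at 2.04 and 2.48 against -2.07 and -2.41, a difference of -4.50 ± 0.40 over elements at -6.001 and -3.001. In mesenteric and omental adipose tissue LIPA was at 0.18 and 0.76 and CD68 at 1.80 and 2.23, above the mammary arrays and below the subcutaneous ones.

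Several hydrolases, activators and proton pump subunits were past the rule, whereas NEU1, a lysosomal sialidase, was not (0.10 ± 0.02), nor was ATP6AP1, a proton pump subunit (-0.96 ± 0.08). CTSK, a collagen-degrading cathepsin of osteoclasts, macrophages and fibroblasts, stood at 2.25 and 2.97 against -2.18 and -2.37, a difference of -4.88 ± 0.46. CTSB, a general lysosomal protease, stood at 2.91 and 3.59 against -0.31 and 0.42, a difference of -3.20 ± 0.02 over 3 elements. ACP5, tartrate-resistant acid phosphatase, differed by -3.43 ± 0.13. PSAP, the precursor of the saposins that activate sphingolipid hydrolases, differed by -2.65 ± 0.05 and HEXA, a hexosaminidase, by -2.51 ± 0.14. ATP6V1A, the catalytic subunit of the lysosomal proton pump, differed by -2.11 ± 0.001 with elements at -2.21 and -2.01. The subcutaneous arrays lay above the mammary arrays in CTSK, CTSB, ACP5, PSAP, HEXA and ATP6V1A, which the size rule nearly fixes.

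PLIN2, which macrophages of this kind express, was the 1 gene of the list on the mammary side. SPP1, osteopontin, a milk protein as well as a macrophage product, differed by 0.37 and did not pass, while both tissues lay above the visceral depots. FABP5, a fatty acid binding protein, stood at 1.87 and 1.91 in mammary gland and 3.65 and 3.99 in subcutaneous adipose tissue, a difference of -1.93 ± 0.15, but the visceral depots were also high at 3.20 and 3.82. ABCA1, a cholesterol exporter, differed by -1.68 ± 0.14, with 4 elements from -2.81 to -0.26, and stood at 2.41 and 2.00 in the visceral depots against 1.93 and 2.31 on the subcutaneous arrays.

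The C1q and resident macrophage list had 7 of 9 genes higher in subcutaneous adipose tissue (median -1.06), and 4 after quantile normalisation. VSIG4, a complement receptor of resident macrophages, stood at 5.37 and 5.53 against 0.42 and 0.33, a difference of -5.07 ± 0.13 (33.7-fold). TIMD4, a receptor for dying cells, differed by -2.15 ± 0.12. C1QA, a chain of the complement starter C1q, stood at 1.27 and 2.67 against -0.34 and 0.77, a difference of -1.75 ± 0.15, while the visceral depots stood at 2.61 and 2.68. C1QB differed by -1.35 ± 0.23, and C1QC by -0.48 ± 0.10, which did not pass. The medians against the visceral depots, which share arrays, were -1.86 for mammary gland and 0.39 for subcutaneous adipose tissue.

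Genes shared by all leukocytes were on the same side in 9 of 10 cases (median -2.01). LAPTM5, a lysosomal membrane protein of blood cells, stood at 2.45 and 2.98 in subcutaneous adipose tissue and at -2.38 and -1.77 in mammary gland, a difference of -4.79 ± 0.04. LCP1, a leukocyte actin bundler, stood at 1.53 and 1.89 against -2.02 and -2.05, a difference of -3.74 ± 0.20. CD48, a ligand of lymphoid and myeloid cells, differed by -4.13 ± 0.05 with both elements past -4. Other leukocyte genes among the first 20 were SRGN, the proteoglycan of secretory granules (-5.09 ± 0.28), and SLAMF7, a receptor of activated leukocytes (-4.21 ± 0.02). The first 20 also held MMP19, a matrix metalloproteinase (-4.77 ± 0.96), MOCOS, a molybdenum cofactor enzyme (-4.38 ± 0.19), SAMHD1, an enzyme that depletes nucleotides in myeloid cells (-3.83 ± 0.15), CTSS, a cathepsin of antigen-presenting cells (-3.87 ± 0.12), LHFPL2 (-3.90 ± 0.07) and LOC514170 (-3.92 ± 0.04). LSP1, also a leukocyte actin-binding protein, was not past the rule (0.083 ± 0.12).

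Lymphocyte markers differed less. Of 7 T cell and NK cell genes 1 was higher in subcutaneous adipose tissue (median -0.28), beside 10.4% of all genes. CD3E, a chain of the T cell receptor complex, stood at 2.83 and 3.42 in subcutaneous adipose tissue and at 0.83 and 3.22 in mammary gland, so the tissues overlapped, and its difference of -1.10 ± 0.90 was -0.21 in the Cy5 orientation alone. CD8A stood at -0.59 and -0.007 against -0.73 and -0.12 (-0.12 ± 0.01), and PRF1, perforin, differed by -0.51 ± 0.21. The 1 B cell gene, IGHM, differed by -0.75 ± 0.57. MHC class II genes, which antigen-presenting cells use, were higher in subcutaneous adipose tissue in 3 of 3 cases, with BOLA-DRB3 at 1.77 and 2.15 against -0.32 and -0.12 (-2.18 ± 0.10) and the invariant chain CD74 at -1.92 ± 0.03. MHC class I presentation and interferon response had none of 10 genes past the rule (median -0.050).

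**Figure D4:**
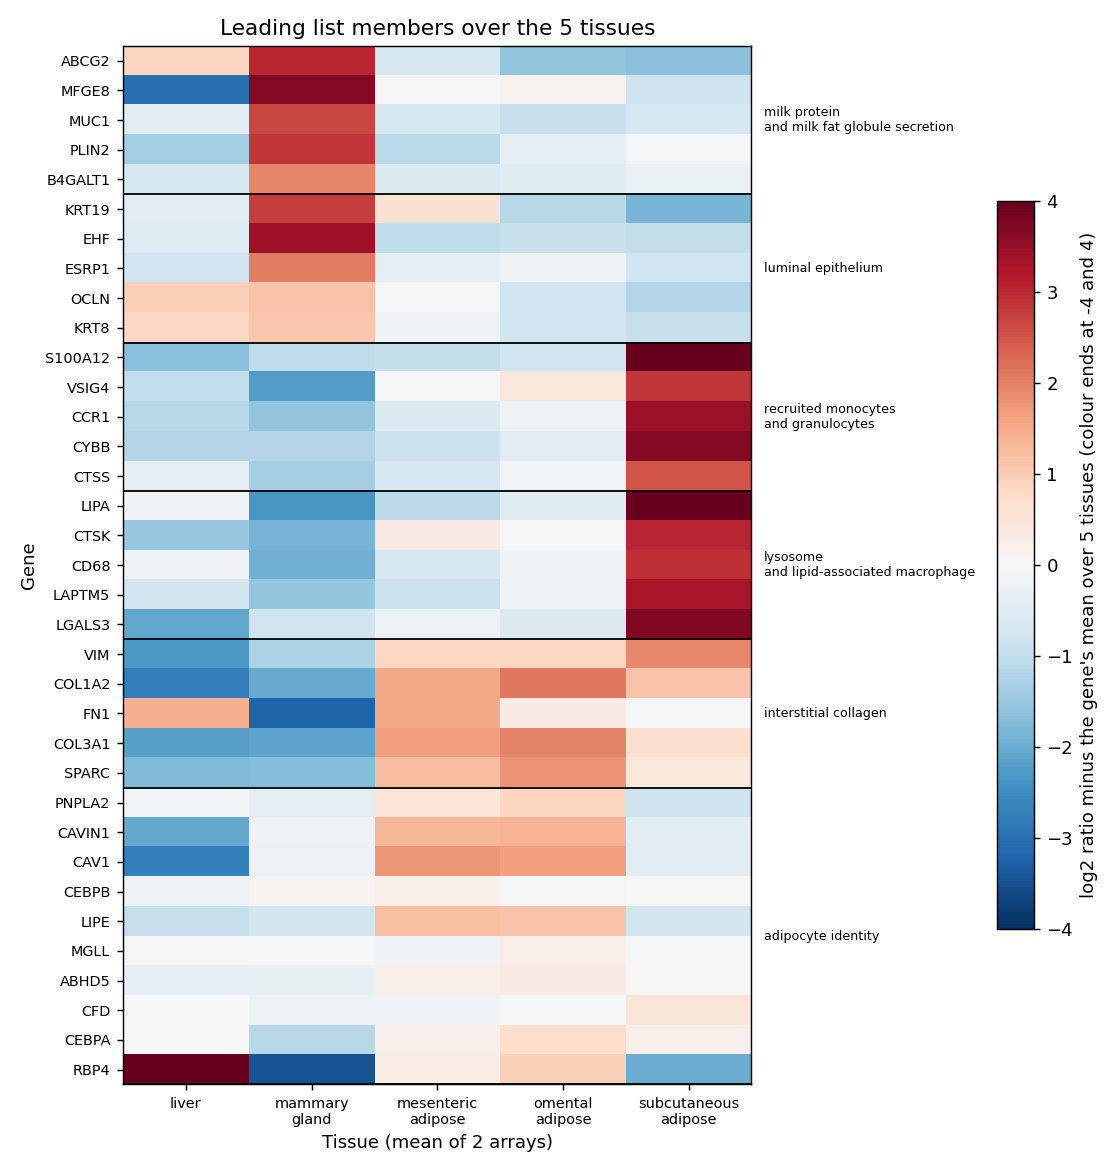
Colours give each gene's log2 ratio minus its mean over the 5 tissues (x axis, each the mean of 2 arrays) for the leading members of 5 lists and all 10 measured adipocyte genes (y axis). Milk and luminal genes are highest in mammary gland, S100A12, CYBB and LIPA in subcutaneous adipose tissue, and COL1A2, LIPE and CAV1 in the visceral depots.

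Interstitial matrix and fibroblast genes were lower in mammary gland in 12 of 21 cases and higher in none (median -1.33). COL1A2, a chain of fibrillar type I collagen, stood at -2.22 and -2.31 in mammary gland and at 0.76 and 0.99 in subcutaneous adipose tissue, a difference of -3.14 ± 0.16 (8.83-fold). FN1, fibronectin, stood at -4.19 and -3.85 against -0.95 and -0.82, a difference of -3.14 ± 0.11. COL3A1, type III collagen, stood at -1.24 and -1.47 against 1.17 and 1.66, a difference of -2.77 ± 0.36. The arrays of the 2 tissues did not overlap in these genes, which the size rule nearly fixes. The visceral depots stood highest for both collagens, at 1.29 and 1.87 for COL1A2 and at 2.41 and 2.73 for COL3A1.

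VIM, vimentin, the intermediate filament of fibroblasts and leukocytes, differed by -3.20 ± 0.01 and DCN, the matrix proteoglycan decorin, by -1.77 ± 0.14. The list holds CTSK, which it shares with the lysosomal list. Against the visceral depots its median was -1.83 for mammary gland and -0.70 for subcutaneous adipose tissue, with shared arrays. The basement membrane list, by contrast with the interstitial one, had 1 of 9 genes past the rule, SPARC at -2.20 ± 0.21, a protein also in the interstitial list (median -0.11). COL4A1, of the sheet-forming type IV collagen, stood at 0.56 and 0.75 against 0.88 and 0.68, so the tissues overlapped (-0.12 ± 0.20). Endothelial genes had 1 of 10 past the rule, LYVE1 of lymphatic endothelium and macrophages at -1.06 ± 0.03, and at -0.997 after quantile normalisation (median 0.10), with KDR, a receptor for vascular growth factor, at 0.50 ± 0.10 and PECAM1 at -0.35 ± 0.30.

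Glycolytic genes divided within their list. Of 18 measured genes 6 were higher in subcutaneous adipose tissue and 1 in mammary gland (median -0.56). LDHA, which forms lactate from pyruvate, stood at -4.53 and -4.74 in mammary gland and at -0.11 and -0.20 in subcutaneous adipose tissue, a difference of -4.49 ± 0.06 (22.4-fold). The visceral depots were low as well, at -3.79 and -3.29. HK3, the hexokinase of leukocytes, differed by -2.77 ± 0.05, GAPDH by -2.05 ± 0.06 and ENO1, an enolase, by -1.86 ± 0.01. PDK4, the kinase that restrains pyruvate oxidation, stood at 0.85 and 1.36 in mammary gland and -0.36 and 0.029 in subcutaneous adipose tissue (1.27 ± 0.07), below the visceral depots at 2.21 and 2.27. Without centring its difference was 0.81 and fell short. The monocyte and granulocyte list averaged 2.83 to 3.14 on the subcutaneous arrays and 0.17 to 0.52 on the mammary arrays. The pan-leukocyte list averaged 0.98 to 1.14 against -1.14 to -1.23. The part of both lists in the glycolytic, matrix and redox values was not tested.

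Redox genes had 10 of 21 higher in subcutaneous adipose tissue and none in mammary gland (median -0.94). PRDX1, a peroxiredoxin, stood at 0.98 and 0.95 against -1.45 and -1.19, a difference of -2.28 ± 0.15. TXN, thioredoxin, stood at -0.16 and -0.026 against -2.31 and -2.36, a difference of -2.24 ± 0.10. HMOX1, which degrades heme, differed by -1.86 ± 0.30 and GPX1, a glutathione peroxidase, by -1.77 ± 0.32. The mammary arrays lay below the subcutaneous ones for PRDX1 and TXN, with no overlap, which the size rule nearly fixes. CAT, catalase, passed at -1.54 ± 0.12, yet its arrays of the same tissue spread by more, at -3.37 and -0.57 in mammary gland and -1.94 and 1.09 in subcutaneous adipose tissue.

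Housekeeping complexes had medians below that of all genes. Cytosolic ribosomal proteins had 10 of 43 genes higher in subcutaneous adipose tissue and 1 in mammary gland (median -0.58), with 40 of 43 below 0. RPL39 stood at -1.75 and -1.68 against -0.23 and 0.038 (-1.62 ± 0.10), RPL37 differed by -1.61 ± 0.39 and RPS27 by -1.59 ± 0.25. The count of 10 became 24 without centring, 5 after quantile normalisation and 6 in the Cy3 orientation alone. RPS15A, on the other side, was at 1.08 ± 0.17 and at 0.62 without centring. Ribosomal protein genes have many pseudogene copies, and cDNA elements may not tell them apart.

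The respiratory chain had 4 of 44 genes higher in subcutaneous adipose tissue (median -0.46), a share near the 10.4% of all genes. The count of 4 became 19 without centring and 2 after quantile normalisation. ATP5PB, a subunit of ATP synthase, differed by -1.23 ± 0.07 and COX5B, of cytochrome c oxidase, by -1.19 ± 0.02. The proteasome had 1 of 19 past the rule, PSMD8 at 1.14 ± 0.46 on the mammary side, while 16 of 19 differences lay below 0 (median -0.45), and without centring 7 were past the rule on the subcutaneous side. PSMD8 fell short at 0.68 both without centring and in the Cy3 orientation alone. Cell cycle genes had 2 of 11 higher in subcutaneous adipose tissue, HMGB2, a chromatin protein (-1.43 ± 0.20, and -0.84 after quantile normalisation), and CDKN1A, a cell cycle inhibitor (-1.43 ± 0.22), with a median of -0.087. Of 3 hepatocyte genes APOA1, the protein of high-density lipoprotein, was past the rule at -1.54 ± 0.36, and TF, transferrin, was not (0.26 ± 0.01). The TF arrays of the same tissue lay far apart, at -3.86 and -0.11 in mammary gland and -4.14 and -0.36 in subcutaneous adipose tissue.

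Set among all 5 tissues, the genes past the rule took different places. Of the 146 mammary-high genes with a value in every tissue, 96 had their highest value in mammary gland and 81 their lowest in subcutaneous adipose tissue. Among 451 subcutaneous-high genes, 340 had their highest value in subcutaneous adipose tissue and 278 their lowest in mammary gland. The rule favours such places, since it picks genes by the difference between these same arrays, and the shares over all genes were not counted. ABCG2 belonged to the first kind, at 2.90 in liver, 1.42 in mesenteric and 0.48 in omental adipose tissue, all below its mammary arrays. LIPA was highest in subcutaneous adipose tissue, at 1.07 in liver. COL1A2 was higher in subcutaneous adipose tissue than in mammary gland and liver (-3.02), but both visceral depots exceeded it.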

How the data were processed

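The authors deposited 1 dye ratio per spot and array, taken here as a log2 ratio, a base that no label states, since 94 values share a ceiling of 16.61. GenePix read the images, per the labels' protocols. Background correction, normalisation and build: not given in the sources used here. Signal over background is unknown without channel intensities, which were not analysed here. Precision is limited by the number of arrays.

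The ratio was read as Cy5 over Cy3, so values were negated where Cy3 held the tissue. Ceiling values were taken as missing, each array was centred on its median, and duplicate spots (each odd position and the next) were averaged to 8208 elements. The deposited medians of the 4 arrays were -1.14 and -0.036 for mammary gland (tissue in Cy3, then Cy5) and -1.32 and 0.71 for subcutaneous adipose tissue. The labels of 1 omental array disagree on its dye; its dye label was used.

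The annotation and the value table follow different spot orders. Of 294912 pairings of print layouts, the one in which different clones of a gene had the most alike profiles over the 5 tissues was used (mean cosine 0.46 over 1319 pairs; next layout 0.069; positions at face value -0.012). It named 5472 elements on 20 plates, 5467 of them matched through Entrez identifiers to the RefSeq gene table of ARS-UCD2.0, though individual clones may be misnamed. Elements of a gene were averaged. No coordinates or sequences are printed.

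Named in the text are the 20 largest differences in each direction past the size rule, up to 4 genes past it in each direction in each list, and members that did not pass where needed to describe a list. Members and gene lists were chosen with earlier results of these data known, and lists share genes (ABCG2, PLIN2, CTSK, VSIG4, LAPTM5, SPARC and others). The layout search and the size rule were tested on simulated data. Alternatives changed the centring, the orientation, the spots, the treatment of elements and the threshold. The planned search of promoters for motifs was not run. Computation used Python 3.11.15, pandas 2.3.3 and numpy 2.4.6.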

Additional observations from a re-analysis of the deposited data

How the results depend on the processing

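No paired analysis was possible because the comparison has 1 RNA sample per tissue and each difference is already taken within a dye. With the higher-in-mammary count first and the higher-in-subcutaneous count second, main counts of 154 and 451 became 76 and 949 without centring, 417 and 870 at 1.5-fold and 69 and 204 at 3-fold. The dye contrast count of 38 became 95 and 9 at those thresholds and 5 with discordant duplicate spots left out. With 1 orientation left out the counts ran from 177 to 205 and from 427 to 547, and no dye contrast exists. None of the genes past the rule changed side under any of the 12 alternatives. The same-sign rule fixes this in advance where 1 orientation was left out, and the other thresholds use the same differences. Among 101 named genes 832 of 1000 differences moved by less than the SD of the 2 orientations, 168 by more, and 0 turned sign. For genes past the rule the sign was likewise fixed where 1 orientation was left out. List medians did turn sign, 12 of them by quantile normalisation or without centring. Some also turned with 1 orientation left out, on single spots of a pair or with discordant duplicate spots left out. Not all of these lay near 0. Prolactin and growth signalling went from 0.365 to -0.095 without centring, and fatty acid synthesis from -0.294 to 0.272 in the Cy3 orientation alone. The limits are 1 RNA sample per tissue, unstated direction and log base, rebuilt gene names and unknown signal over background, so no difference can be carried from these samples to the tissues of other animals.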

Other observations

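Further families were picked by gene symbol after the values were seen. They share genes with the lists above, such as OCLN, CTSB and ATP6V1A, so their counts are not separate evidence. Of 19 measured polarity and junction proteins 7 were higher in mammary gland and none in subcutaneous adipose tissue (median 0.77). They included PATJ, a scaffold of the apical Crumbs complex (2.16 ± 0.16), and CGN, cingulin of the tight junction (2.00 ± 0.29). PRKCZ, an atypical protein kinase C, also passed at 1.77 ± 0.19, but was at 0.76 on the first spots. It had no value on the second spots or with discordant duplicate spots left out. PARD6B, a partner of atypical kinases, stood at -0.94 ± 0.01 and did not pass. Among the grainyhead and AP-2 transcription factors of epithelia 3 of 4 were higher in mammary gland. TFAP2C was at 1.20 ± 0.22 over elements at 0.45 and 1.94, and GRHL1 at 1.31 ± 0.38. Both fell short without centring (0.74 and 0.85) and in the Cy3 orientation alone (0.97 and 0.93).

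On the subcutaneous side stood 8 of 9 cathepsins (median -2.78), with CTSA, protective protein of the lysosome, at -3.79 ± 0.17, and 7 of 12 subunits and partners of the V-type proton pump (median -1.41). The Arp2/3 complex, which branches actin filaments, had 4 of 6 members there, with ARPC2 at -2.42 ± 0.09. Annexins had 4 of 7, with ANXA1 at -1.81 ± 0.50, and sorting nexins 4 of 14, with SNX10 at -2.54 ± 0.03. Of 11 immediate early genes 3 were higher in subcutaneous adipose tissue, whereas FOS at -0.61 ± 0.23 and EGR1 at -0.49 ± 0.19 did not pass. JUN differed by -2.89 ± 0.70, with no value when discordant duplicate spots were left out. FOSB differed by -2.71 ± 0.05. JUNB differed by -1.81 ± 0.03 as the mean of 2 elements that disagreed in size, at -3.22 and -0.405.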
